A study of Mus musculus with 6 samples.

Results

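The mitosis genes described here are 40 genes whose products build the spindle, attach chromosomes to it, separate them and divide the cell. They were chosen by name, and all 40 are among the 19831 genes that the authors list. RNA of mouse inguinal adipose tissue (iAT), the subcutaneous fat of the groin, was sequenced at postnatal day 6. The 3 wild-type samples (WT) were set against 3 samples in which *Npffr1* had been ablated (Npffr1-KO). *Npffr1* encodes a receptor for neuropeptide FF. Strain and sex of the mice, the way in which *Npffr1* was ablated and whether each sample came from a separate animal were not stated in the labels, and all samples came from animals kept specific pathogen free. A spread between samples therefore may be technical. The question was whether the iAT of young mice differs in these genes when the receptor is missing.

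A dividing cell copies its DNA in S phase and sorts the copies in mitosis. Cyclin B with the kinase Cdk1 starts mitosis, and Plk1 and the Aurora kinases set up the spindle. The spindle checkpoint holds the cell back until each chromosome is attached. The anaphase-promoting complex, a ubiquitin ligase, then marks securin and cyclin B for breakdown, so that the chromosomes part and the cell divides. Transcription of these genes peaks late in the cell cycle. Many of their promoters carry a cell cycle genes homology region (CHR, core TTTGAA), to which the MuvB complex binds with B-Myb and Foxm1 in cycling cells and as the DREAM repressor in resting cells. They also often carry CCAAT boxes, which bind the factor NF-Y. In bulk tissue such transcripts come from the few cells that divide, whatever their type. More dividing cells and more RNA per dividing cell cannot be told apart.

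The promoter windows show what these genes share in sequence. Windows from 250 bases before to 50 bases after the RefSeq start (build GRCm38.p6) were found for 32 of the 40 genes. The genes with no window in the table used here were *Aurkb*, *Ccna2*, *Cdc25c*, *Foxm1*, *Incenp*, *Kif20a*, *Spc24* and *Tpx2*. The 100 bases before the start are printed for 6 genes, namely a ubiquitin-conjugating enzyme (*Ube2c*), an activator of the anaphase-promoting complex (*Cdc20*), a cyclin (*Ccnb2*), its kinase (*Cdk1*), a topoisomerase (*Top2a*) and a spindle motor (*Kif11*). Apart from *Ccnb2*, they were chosen because both motifs lie wholly within these 100 bases, so they are not typical of the 32 windows. *Ccnb2* was added for its ratio between the genotypes, given below, and its printed stretch holds no CHR core. They are read 5′ to 3′ on the strand of the gene. Capitals mark the CHR core (TTTGAA, or TTCAAA for the other strand) and the CCAAT box (CCAAT, or ATTGG for the other strand).
Ube2c: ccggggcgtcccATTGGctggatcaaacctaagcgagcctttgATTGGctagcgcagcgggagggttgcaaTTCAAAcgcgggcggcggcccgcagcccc
Cdc20: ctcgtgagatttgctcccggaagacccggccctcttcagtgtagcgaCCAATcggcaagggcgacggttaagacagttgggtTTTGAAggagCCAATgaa
Ccnb2: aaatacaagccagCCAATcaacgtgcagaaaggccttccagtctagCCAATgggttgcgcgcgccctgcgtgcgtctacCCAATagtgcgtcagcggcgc
Cdk1: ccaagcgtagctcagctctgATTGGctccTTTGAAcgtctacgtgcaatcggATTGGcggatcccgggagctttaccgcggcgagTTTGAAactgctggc
Top2a: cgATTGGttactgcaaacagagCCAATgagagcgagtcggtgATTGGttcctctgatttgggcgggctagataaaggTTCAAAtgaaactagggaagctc
Kif11: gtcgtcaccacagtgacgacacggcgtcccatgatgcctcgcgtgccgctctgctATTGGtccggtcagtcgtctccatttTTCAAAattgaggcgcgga

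These stretches and their strands are *Ube2c* chr2:164769829-164769928 (plus), *Cdc20* chr4:118437344-118437443 (minus), *Ccnb2* chr9:70421555-70421654 (minus), *Cdk1* chr10:69352913-69353012 (minus), *Top2a* chr11:99024190-99024289 (minus), *Kif11* chr19:37376282-37376381 (plus). In the stretch of *Ccnb2* the 3 CCAAT boxes follow each other at 33 and 33 bases. In that of *Cdk1* the 2 boxes are 32 bases apart, and in that of *Ube2c* they are 31 bases apart. Other printed boxes are spaced otherwise. In the stretch of *Cdc20* the 2 boxes are 45 bases apart, and in that of *Top2a* the 3 boxes follow each other at 20 and 20 bases.

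Both strands were searched for TTTGAA and CCAAT, which can overlap by at most 1 base. The CHR core was present in 23 of the 32 windows, 71.9% (95% Wilson interval 54.6 to 84.4), and in 18.1% of the windows of 27025 genes. A CCAAT box was present in 24 of 32, 75% (57.9 to 86.7), and in 37.9% of all windows. Both were present in 20 of 32, 62.5% (45.3 to 77.1), and in 7.12% of all windows. In the shorter window from 150 bases before the start the 62.5% of the mitosis genes stood beside 3.37% of all genes. Neither motif was found in the windows of *Birc5*, *Mad2l1*, *Nuf2*, *Nusap1* and *Pttg1*. Of 32 pairs of neighbouring CCAAT boxes in these genes, 9 lay 31 to 33 bases apart, 28.1%, and of 4659 pairs in all genes 6.20% did. This spacing was chosen after the gaps had been seen. A match is a description of letters and not a binding site.

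**Figure D1:**
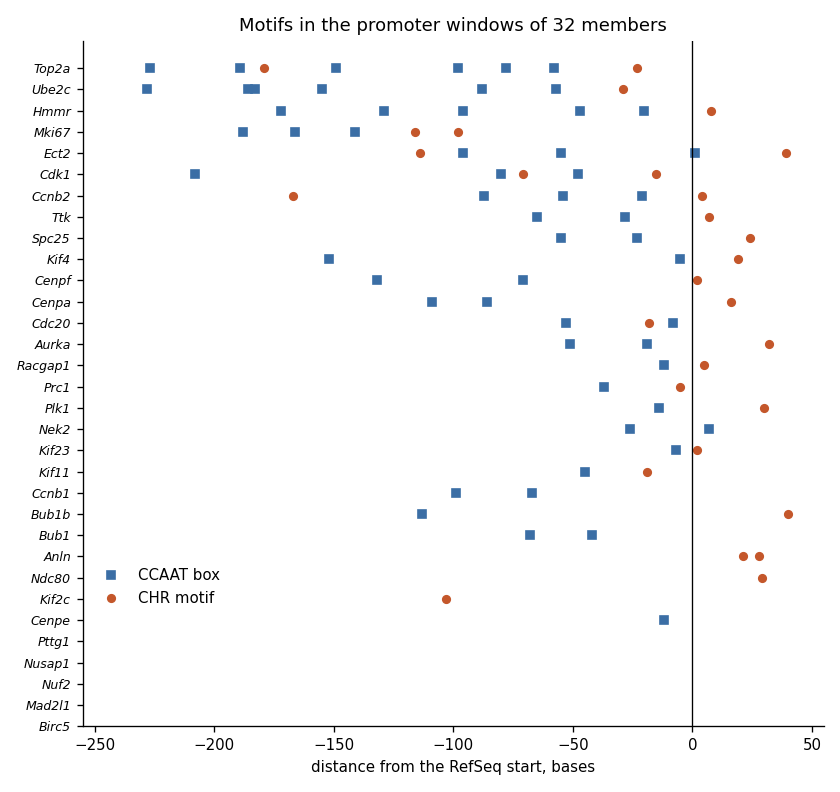
Places of the CHR core (circles) and the CCAAT box (squares) in the promoter windows of 32 mitosis genes, against the distance from the RefSeq start in bases. Of the 32 genes 20 carry both motifs, and the 5 genes at the bottom carry neither.

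The authors' table gives 1 value per gene and genotype, in counts normalized for library size and pooled over the 3 samples. It holds no spread, so the ratios of the pooled values have no test. Values of single libraries could be worked out for genes of low level from the whole reads behind the pooled values. Libraries found in this way are called wild-type A to C and Npffr1-KO A to C, and they cannot be tied to sample numbers. Their size factors lay between 0.916 and 1.04. *Npffr1* itself had 1, 0 and 5 reads in the wild-type libraries A, B and C and 0 in all 3 Npffr1-KO libraries, a level too low to check the labels firmly. A count of 0 allows up to 3 reads in a library, by counting error alone.

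Library Npffr1-KO A stood apart in genes that have no part in mitosis. *Ckm*, the creatine kinase of muscle, had 207 normalized counts there and 1.01 to 6.55 in the other 5 libraries. *Myog*, a regulator of muscle differentiation, had 9.64 there and 0 elsewhere. *Krt5*, a keratin of basal epithelium, had 20.2 in Npffr1-KO A, 10.9 in wild-type C and 0 in the other 4 libraries. These 3 genes were chosen after their values had been seen. Of 5 muscle markers, the 3 with a mean of at least 10 were all at least 25% higher in Npffr1-KO in the pooled values, with a median log2 ratio of 0.75. The 5 keratinocyte markers summed to 108 in Npffr1-KO A and to 62.6 to 97.9 in the other libraries, and the 4 mammary epithelium markers to 60.7 there and to 50.2 to 68.6 in the others. The pooled values follow such a library weakly, since *Ckm* was listed with 27.5 in wild-type and 46.4 in Npffr1-KO. Npffr1-KO C stood apart by gene length. Among genes of 100 to 320 normalized counts, the 542 shortest there had a median of 1.14 times the mean of the 6 libraries and the 542 longest 0.882 times.

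The mitosis genes were expressed well above the detection limit in the wild-type iAT. *Mki67*, the antigen by which cycling cells are stained, had the highest wild-type value with 3255 normalized counts, above 93.2% of all listed genes. *Top2a*, which untangles DNA, had 2066 and *Ccna2*, cyclin A, had 1668. The lowest was *Cdc25c*, the phosphatase that switches on Cdk1, with 102 normalized counts and above 38.4% of the listed genes. Levels of different genes are comparable only per length. Per kilobase, *Ube2c*, the conjugating enzyme of the anaphase-promoting complex, was highest with 1192 normalized counts per kilobase in wild-type. It was followed by *Pttg1*, securin, with 942, by *Birc5*, survivin, with 719, and by *Ccna2* with 590. *Cenpf*, a large kinetochore protein, had 52.8 per kilobase and *Cdc25c* 52.2, the lowest 2 of the 40. The 4 subunits of the Ndc80 complex, the microtubule hook of the kinetochore, were not level per kilobase. *Spc25* had 284, *Spc24* 253, *Nuf2* 208 and *Ndc80* 115 normalized counts per kilobase in wild-type. No spread between samples is given for this order, so neighbouring genes in it cannot be set apart.

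**Figure D2:**
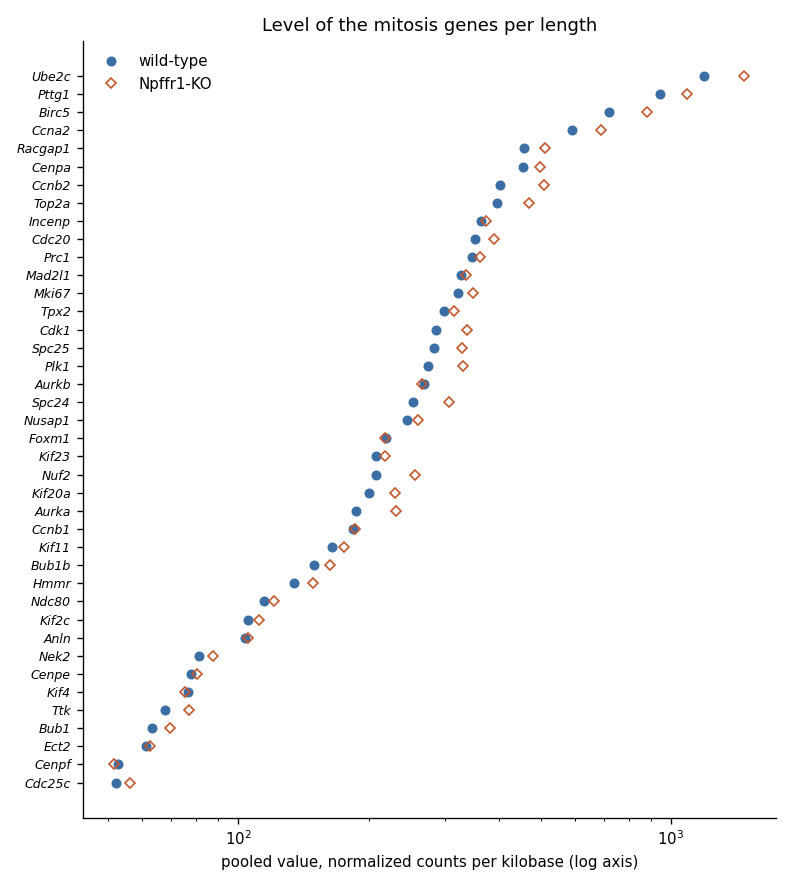
Pooled wild-type value (filled circles) and pooled Npffr1-KO value (open diamonds) of the 40 mitosis genes in normalized counts per kilobase, on a log axis. *Ube2c* is highest and *Cdc25c* lowest, and the symbols of the 2 genotypes lie close together beside the range of levels among the genes.

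Between the genotypes the mitosis genes differed little, and most of them in the same direction. In the pooled values 36 of the 40 were higher in Npffr1-KO by any amount, where 52.3% of the 10856 genes in the same range of means were. The median log2 ratio of Npffr1-KO over wild-type was 0.12, beside 0.0082 over all 15309 genes whose mean was 10 normalized counts or more. The size taken here as a difference worth counting was 25% higher or 20% lower, the same distance from no change on the log2 scale. Only 1 of the 40 was past it higher, and 0 were past it lower. Of all 15309 genes 12% were past it higher and 11.6% lower. Among genes in the range of means of the mitosis genes the shares were 10.5% and 8.76%. With 1 of 40 upwards and 0 of 40 downwards, the mitosis genes were below both shares, and no test of this was run. These counts hold for the pooled values, whose ratios are drawn towards 1, as described under the processing. Genes just short of the size counted could be past it in library means, and this was not tested. At 1.1-fold 18 of 40 were higher, beside 31.3% of the 15309 genes, and at 1.5-fold 0 of 40, beside 2.78%. The 4 genes that were lower in Npffr1-KO were *Cenpf*, with a log2 ratio of -0.031, *Kif4*, with -0.019, *Aurkb*, with -0.017, and *Foxm1*, with -0.0073. These genes share their libraries and are not replicates of the genotype.

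The cyclins and kinases that start mitosis had a median log2 ratio of 0.23 over 8 genes, and 0.21 when centred on genes of like length, as described further on. *Ccnb2*, cyclin B2, had 620 (wild-type) and 785 (Npffr1-KO) normalized counts, a log2 ratio of 0.34, and was the gene past 25% higher. Its relative *Ccnb1*, cyclin B1, had 427 and 431, a log2 ratio of 0.014. The pair of B cyclins thus stood at both ends of the group. *Cdk1*, their kinase, had 818 (wild-type) and 969 (Npffr1-KO) normalized counts. *Aurka*, the kinase of the spindle poles, had 355 and 439, a log2 ratio of 0.31. *Plk1*, the polo-like kinase, had 606 and 730, and *Ccna2* had 1668 and 1946. *Nek2*, which parts the centrosomes, and *Cdc25c* lay lower with log2 ratios of 0.11 and 0.10.

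The 3 anaphase genes, all short, had a median log2 ratio of 0.21, which was 0.062 when centred on genes of like length. *Ube2c* had 1110 (wild-type) and 1376 (Npffr1-KO) normalized counts, in the pooled values 24.0% higher and just short of the size counted. *Pttg1* had 760 and 881. *Cdc20*, the activator that brings substrates to the anaphase-promoting complex, had 631 and 699. The 4 spindle checkpoint genes had a median of 0.13, from 0.18 for *Ttk*, the Mps1 kinase that starts the signal, through *Bub1* with 0.14 and *Bub1b* with 0.12, to 0.040 for *Mad2l1*, which binds Cdc20.

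The 7 genes of centromere and kinetochore had a median log2 ratio of 0.13. *Nuf2* had 500.5 (wild-type) and 616.9 (Npffr1-KO) normalized counts, and *Spc24* had 341 and 414. *Spc25* had 399 and 462, and *Ndc80* had 252 and 266. The log2 ratio within this single complex thus ran from 0.078 to 0.30. *Cenpa*, the histone that marks the centromere, had a log2 ratio of 0.13. *Cenpe*, a kinetochore motor, had 0.048, and *Cenpf* had -0.031.

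The 6 spindle motors and microtubule proteins had a median of 0.085. *Kif11*, the motor that pushes the spindle poles apart, had 800.0 (wild-type) and 853 (Npffr1-KO) normalized counts. *Hmmr* was the highest of the group with a log2 ratio of 0.15, while *Tpx2*, which activates Aurka on the spindle, *Nusap1* and the microtubule depolymerase *Kif2c* lay between 0.073 and 0.087. *Kif4*, a chromosome-bound motor, had -0.019. In the chromosomal passenger complex the 3 subunits differed, with *Birc5* at 824 and 1007 normalized counts, *Incenp*, the scaffold, at 1174 and 1205, and the kinase *Aurkb* at 533 and 527. The 6 genes of the midzone and of cytokinesis had a median of 0.065. *Kif20a*, which carries the passenger complex to the midzone, was the highest with 0.20. *Racgap1* and *Kif23*, which form centralspindlin, had 0.16 and 0.069. *Prc1*, which bundles microtubules, had 0.061. *Ect2*, which switches on RhoA at the cleavage site, had 0.030, and *Anln*, anillin, had 0.022. *Top2a* had 2066 (wild-type) and 2451 (Npffr1-KO) normalized counts, *Mki67* had 3255 and 3529, and the transcription factor *Foxm1* had 963 and 959.

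**Figure D3:**
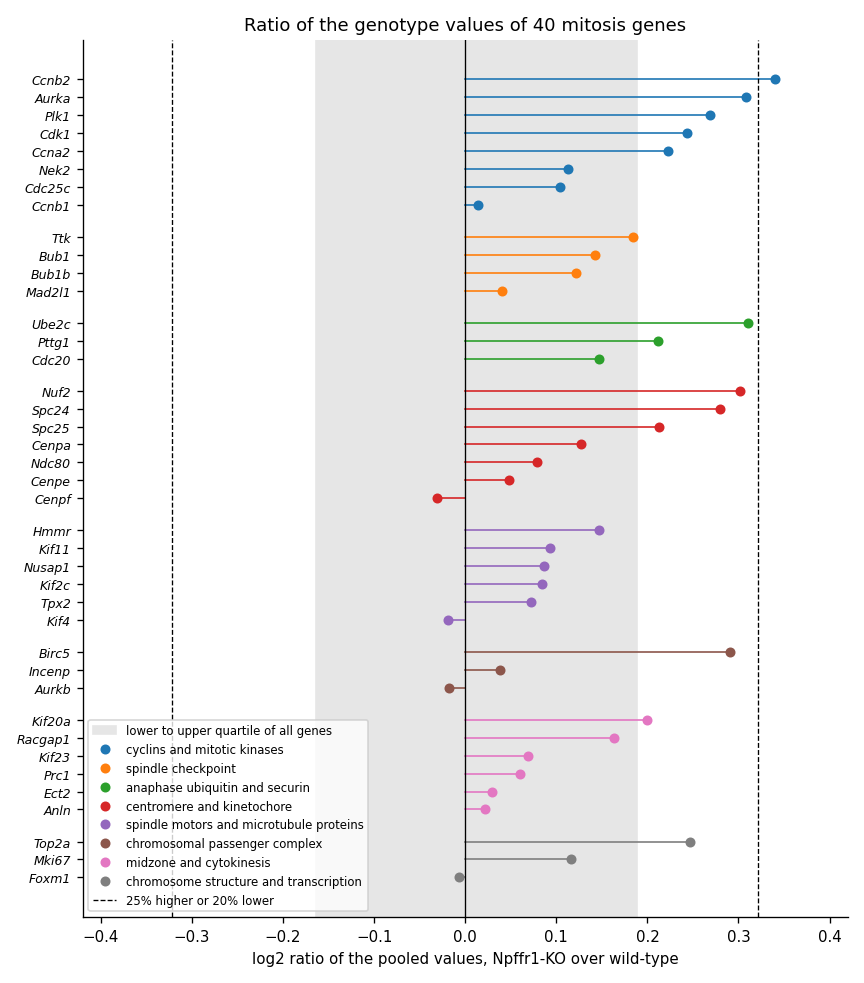
Log2 ratio of the pooled values, Npffr1-KO over wild-type, of the 40 mitosis genes ordered by task. The dashed lines mark 25% higher and 20% lower, the grey band the range from the lower to the upper quartile of all genes with a mean of at least 10, and *Ccnb2* with 0.34 is the only point past a dashed line, while 4 points lie below 0.

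The ratios moved with the length of the genes. Over the 40 mitosis genes the Spearman correlation of the log2 ratio with the listed length was -0.52, and over 15309 genes it was -0.38. Both are descriptions across genes of the same libraries. The 20 shorter mitosis genes, of 807 to 2904 bases, had a median of 0.21, and the 20 longer ones, of 2932 to 11130 bases, had 0.080. When each ratio was centred on genes of like length, in 20 classes, the medians were 0.10 and 0.14, and that of all 40 was 0.12. The number of genes above 0 was again 36, but not the same ones. *Cenpf*, *Kif4* and *Foxm1* went above 0, with 0.11, 0.078 and 0.056. *Mad2l1* and *Ccnb1* went below it, with -0.075 and -0.044, as did *Pttg1*, and *Aurkb* stayed below. The order of single genes and of the groups by task changed. The median of *Top2a*, *Mki67* and *Foxm1* went from 0.12 to 0.26, the highest of the 8 groups, and that of the anaphase genes, 0.062, became the lowest beside 0.063 for the passenger complex. *Ccnb2* then had 0.23 and was short of 25% higher, while *Top2a*, of 5217 bases, had 0.36 and was the 1 gene past it. Of all 15309 genes 1256 were past 25% higher after this centring, and 1769 were past 20% lower. *Mki67*, of 10098 bases, had 0.26, *Pttg1* had -0.054 and *Ube2c* had 0.10. The part of the length trend in the differences among these genes was not tested beyond this.

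Values in single libraries were found for the 7 mitosis genes whose mean did not exceed 320 normalized counts, and for none of the other 33. For *Cdc25c* and *Ttk* the mean of the pooled values left 1 combination of whole reads. For the other 5 it left 2 to 13, and the one whose library means gave the listed ratio was taken, so that their differences between genotypes are not independent of the pooled ratio.

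*Bub1*, a checkpoint kinase, had 275, 215 and 327 normalized counts in wild-type A, B and C and 420.2, 256 and 231 in Npffr1-KO A, B and C. The mean was 272 ± 55.6 in wild-type and 303 ± 103 in Npffr1-KO (SD, n = 3 each, two-sided exact permutation test, p = 0.7). Npffr1-KO A alone was above the wild-type range, and Npffr1-KO B and C lay within it. *Ttk* had 189, 174 and 226 in wild-type and 269, 204 and 201 in Npffr1-KO. Its means were 197 ± 26.8 and 224.5 ± 38.5 (SD, n = 3 each, exact permutation p = 0.4). Again 1 library, Npffr1-KO A, was above all wild-type values. *Nek2* had 294, 194 and 293 in wild-type and 358, 260.4 and 229 in Npffr1-KO, with p = 0.7 by the same exact test. *Ndc80* had 274, 223 and 259 in wild-type and 311, 230.1 and 259 in Npffr1-KO, with p = 0.7 by the exact test.

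*Ect2* had 245, 218 and 277 in wild-type and 315, 229 and 212 in Npffr1-KO (exact permutation p = 1). Its lowest value was in an Npffr1-KO library, C. *Kif2c* had 335, 257 and 304 in wild-type and 353, 340.1 and 259 in Npffr1-KO (exact permutation p = 0.5). *Cdc25c* had 99.5, 74.4 and 130.0 in wild-type and 129, 99.9 and 99.3 in Npffr1-KO (exact permutation p = 0.8). It was the 1 gene of the 7 in which wild-type C, and not Npffr1-KO A, was highest. With 3 against 3 libraries the smallest possible p is 0.1. The genotypes overlapped in all 7 genes, while they did not in 20.9% of the 2167 genes of like level.

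**Figure D4:**
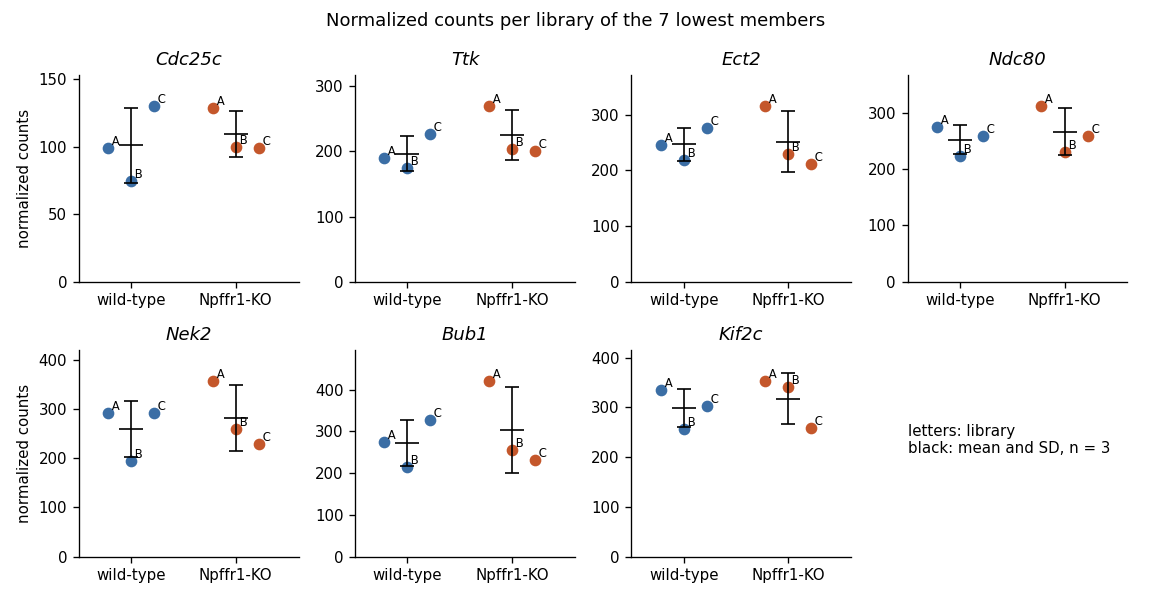
Normalized counts in each library of the 7 mitosis genes with values per library, wild-type in blue and Npffr1-KO in red, with mean and SD (n = 3) in black. The 2 genotypes overlap in each panel, and Npffr1-KO A is the highest point in 6 of 7.

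The libraries varied together in these genes. Npffr1-KO A was the highest of the 6 libraries in 6 of 7 mitosis genes, and in 23.1% of genes of like level. It was at least 25% above the mean of the 6 libraries in *Bub1*, *Nek2*, *Ttk* and *Ect2*, 4 of 7, and 11.4% of genes of like level were. Wild-type B was the lowest in 6 of 7, and in 19.2% of genes of like level. The median over the 7 genes, relative to the mean of the 6 libraries, was 1.26 in Npffr1-KO A, 0.948 in B and 0.849 in C, beside 0.984, 0.828 and 1.08 in wild-type A, B and C. In the 2167 genes of like level these medians lay between 0.976 and 1.02. The median log2 difference of Npffr1-KO and wild-type over the 7 genes was 0.12. Without Npffr1-KO A it was -0.042, with 2 of 7 genes higher in Npffr1-KO, and without wild-type B it was -0.037, with 1 of 7 higher. Without any one of the other 4 libraries it lay between 0.14 and 0.22. The direction of the median library difference of these 7 genes thus rested on each of 2 libraries. Of single genes, *Ttk* stayed higher in Npffr1-KO whichever library was left out. For the 33 genes with higher means the effect of leaving out a library was not tested, among them *Ccnb2*, *Ube2c* and *Top2a*. The muscle genes *Ckm* and *Myog* moved with Npffr1-KO A too, and their part in the mitosis genes was not tested.

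In other mitosis genes outside the 40 the same library was often the highest. Of 57 such genes 2 were past 25% higher and 1 was past 20% lower, beside 12% and 11.6% of the 15309 genes. The median log2 ratio was 0.074. *Cenpm*, a centromere protein, had 216 (wild-type) and 302 (Npffr1-KO) normalized counts, and *Cks2*, a small partner of Cdk1, had 366 and 475. *Pkmyt1*, a kinase that holds Cdk1 back, had 818 and 642. Centred on genes of like length, the 57 genes had a median of 0.096, with 0 past 25% higher and 1 past 20% lower. *Cenpm* then had 0.316 and *Cks2* 0.11, both short of 25% higher, while *Pkmyt1* had -0.42. Values per library were found for 25 of the 57 genes. Npffr1-KO A was the highest library in 16 of them, and their median there was 1.27 times the mean of the 6 libraries. Wild-type B was the lowest in 10 of the 25, a smaller share than in the 7 mitosis genes. The median log2 difference of the 25 was 0.012, with 15 of them higher in Npffr1-KO, and it was -0.15 without Npffr1-KO A. In 16 genes of both lists the mean alone left 1 combination, without use of the pooled ratio. Npffr1-KO A was highest in 11 of these 16, and wild-type B was lowest in 6.

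**Figure D5:**
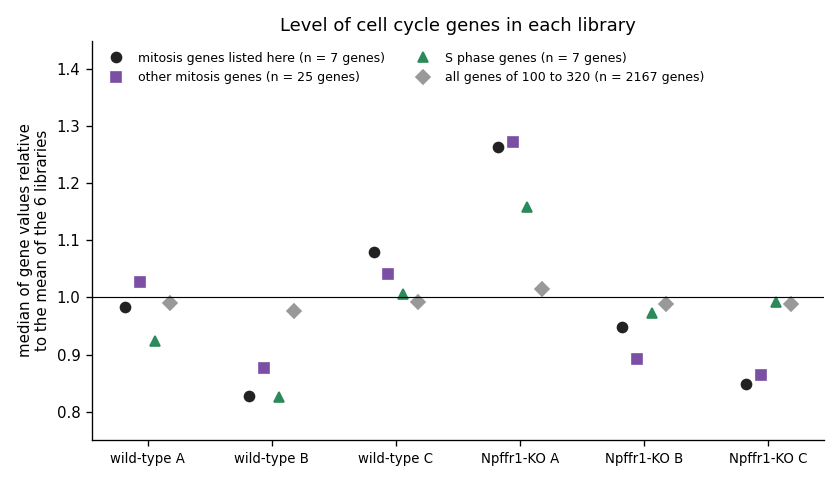
Median of the gene values relative to the mean of the 6 libraries, for the 7 mitosis genes, 25 other mitosis genes, 7 S phase genes and 2167 genes of 100 to 320 normalized counts. The mitosis genes reach 1.26 in Npffr1-KO A and 0.828 in wild-type B, while the 2167 genes stay near 1 in all 6 libraries.

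Genes of S phase and licensing had a larger median ratio than the mitosis genes. The 24 genes of S phase and licensing, which copy DNA and permit its copying once, had a median log2 ratio of 0.27, and 23 of them were higher in Npffr1-KO. Of the 24 genes 7 were past 25% higher and 0 past 20% lower, beside 12% and 11.6% of the 15309 genes. Centred on genes of like length, their median was 0.19, beside 0.12 for the mitosis genes. Then 21 of 24 were higher and again 7 past 25% higher, beside 1256 of all 15309 genes. *Mcm3* and *Mcm5*, subunits of the replicative helicase, had log2 ratios of 0.47 and 0.44. In the 7 S phase genes with values per library, the median log2 difference was 0.20 with all libraries and 0.043 without Npffr1-KO A, with 6 of 7 still higher. Npffr1-KO A was the highest library in 6 of 7. The difference between S phase and mitosis genes was not tested.

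Partners of the mitosis genes had medians on both sides of 0, and some turned with gene length. Condensin and cohesin, which shape and hold chromosomes, had a median of -0.022 over 17 genes with 0 past the size counted either way. The anaphase-promoting complex had 0.026 over 16 genes, with *Ube2s*, its chain-extending enzyme, at 0.38 and past 25% higher. The MuvB, B-Myb and DREAM genes, which encode parts of these complexes or their relatives, had -0.051 over 13 genes. Among them *Lin54*, the MuvB subunit that touches the CHR, was at -0.34 and past 20% lower. The tubulins had 0.20 over 9 genes, with *Tubg1*, which seeds microtubules, at 0.38 and past 25% higher. Of 14 G1 cyclins and CDK inhibitors 3 were past 25% higher and 2 lower, beside 12% and 11.6% of the 15309 genes. The inhibitors *Cdkn2c* and *Cdkn2a* had log2 ratios of 0.63 and 0.62, and *Cdkn1c* and *Cdkn1a* had -0.92 and -0.37. Centred on genes of like length, condensin and cohesin had a median of 0.084 with 12 of 17 higher, and the anaphase-promoting complex had -0.019 with 6 of 16 higher, so that the direction of both turned. MuvB, B-Myb and DREAM then had -0.070 and the tubulins 0.12. *Ube2s* at 0.17, *Tubg1* at 0.26 and *Lin54* at -0.28 were then no longer past the size counted. Centring also brought other genes past it. In condensin and cohesin 1 gene was then past 25% higher, and in the anaphase-promoting complex 1 was past 20% lower. Among all 15309 genes 1256 were then past 25% higher and 1769 past 20% lower.

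Markers of cell types that could hold dividing cells also differed between the genotypes. The defining genes of adipocytes were present, with *Fabp4* and *Adipoq* at 156285 and 37027 normalized counts in wild-type. All 6 T cell markers were past 25% higher in Npffr1-KO, with a median log2 ratio of 0.68. Over all 15309 genes 12% were past 25% higher and 11.6% past 20% lower. *Lck* had 1675 and 2798 normalized counts and *Cd4* had 1514 and 2209. The 4 B cell markers had a median of 0.26 with 1 past 25% higher, and the 6 genes of B and T progenitors had means of at most 22.1 normalized counts. The 5 erythroid markers with that mean had a median of 0.22. Of the 4 endothelial markers 3 were past 20% lower, and the median was -0.39. Of the 6 markers of adipocyte progenitors 2 were past it lower, with a median of -0.16. Of 7 adipocyte markers 2 were past 25% higher, and of 4 macrophage markers 1 was. Centred on genes of like length, the T cell markers had a median of 0.56 with 6 past 25% higher. The B cell markers then had 0.13 with 0 past it, and adipocytes had 1 and macrophages 0 past it. The erythroid median turned to -0.032, with 2 of 5 higher. The endothelial markers had -0.30 with 1 past 20% lower, and the progenitor markers had -0.23 with 1 past it. No marker of T cells, B cells, endothelium, adipocytes, adipocyte progenitors or macrophages had values per library. Whether their differences rest on a single library was therefore not tested. The part of these cell types in the level of the mitosis genes was not tested.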

How the data were processed

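RNA of 6 iAT samples, 3 wild-type and 3 Npffr1-KO as labelled, was analysed. According to the submitters' processing notes Bowtie2, RSEM and DESeq2 were used. For their versions, the genome build and the strand setting: not given in the sources used here. The authors deposited 1 signal per gene and genotype, which is read counts normalized for library size, and a gene length in bases. Whether reads of overlapping or closely related genes were split is not stated. The 4 deposited columns of the authors' own comparison hold a log2 fold change, p-values and the direction of change and were not used, nor was a shorter table of genes chosen by them. Data of other experiments were not used here.

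The log2 ratio of the 2 pooled values was taken without pseudocount, over genes with a mean of at least 10. With 1 value per genotype no model could be fitted across genes. The pooled values are not plain means of libraries: their mean is that of the normalized counts of the 6 libraries, but their ratio is drawn towards 1, strongly where libraries of a genotype disagree. The genes that hold 1 read in all fall on 6 values, which give 6 size factors, and the direction of their pooled values gives the genotype of each library. Whole reads in each library were searched so that the mean matched the 15 digits given. The search was full below a mean of 40 and used a wider range for means of 40 to 100. For means of 100 to 320 it ran between 0.6 and 1.6 times the mean. Below a mean of 100 a combination was kept where it was the only match to the mean, without use of the ratio. From 100 on, it was kept where it was the only one whose log2 ratio of library means, times 0.92, gave the pooled ratio within 6% of its size plus 0.01. This use of the ratio was added after the data had been seen, and it leaves out genes in which a single library is far off. For genes of the lists with no match, 1 library was also searched without an upper limit and without the ratio. Of 2539 genes of 100 to 320, 2167 received values (85.3%). The search was tested on simulated data, where most genes were found again, some were left without a value, and a wrong combination was kept in rare cases. Normalized counts per library were compared on log2(value + 1) by a two-sided exact permutation test. Intervals and limits cover counting error only.

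All 40 members and, of every other list, at most the 2 largest rises and falls past 25% higher or 20% lower are named, and of marker lists the 2 with the highest wild-type value. Members and lists were chosen with earlier results of these data known. Promoter sequences are from RefSeq (GRCm38.p6). Python 3.11.15, pandas 2.3.3, NumPy 2.4.6, SciPy 1.17.1, Numba 0.67.0 and Matplotlib 3.10.9 were used.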

Additional observations from a re-analysis of the deposited data

How the results depend on the processing

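The number of mitosis genes at least 25% higher was 1 as reported and under other minimums, pseudocounts, and centring on the median gene or on genes of like length, where the gene was *Top2a* in place of *Ccnb2*. It was 0 when ratios were centred on the ratio of the column sums. It was 18 at 1.1-fold, which 31.3% of all genes reached, and 0 at 1.5-fold, which 2.78% reached. The number lower was 0 under all of these. The median log2 ratio stayed between 0.088 and 0.12, and 33 to 36 of 40 genes were higher under the 3 ways of centring. When the levels were not divided by length, 6 of the 10 highest genes were the same. Values per library were found for 7 genes, for 2 by the mean alone, and for 6 with a range of 0.5 to 1.8 of the mean, in which *Kif2c* kept 2 combinations. Leaving out each library in turn moved the median log2 difference of the 7 genes from 0.12 to between -0.042 and 0.22. For single genes the ranges were -0.14 to 0.29 for *Bub1*, -0.066 to 0.33 for *Cdc25c*, -0.16 to 0.13 for *Ect2*, -0.022 to 0.22 for *Kif2c*, -0.042 to 0.17 for *Ndc80*, -0.080 to 0.26 for *Nek2* and 0.050 to 0.29 for *Ttk*. A direction was reversed in 5 of 7 genes without Npffr1-KO A, in 6 of 7 without wild-type B, and in 0 without any of the other 4 libraries. A pseudocount of 0.5 changed no direction. No paired analysis was possible because the table gives 1 value per genotype and the libraries worked out from it carry no replicate numbers. Values per library were searched only for genes whose mean did not exceed 320 normalized counts, a limit chosen here, and higher genes were not searched.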
